A study of Mus musculus with 21 samples.

Results

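Loss of Ezh1 alone was examined in mouse liver at 2 months of age by setting the column of Ezh1-/- animals (E1KO) against that of their controls (WT) in a table with 1 RNA-seq value per gene and group. These are 2 of the 12 RNA columns of the series, which has 21 samples in all. Of the 22520 genes in the table, 10214 had at least 1 FPKM in at least 1 of the 2 columns and were compared. FPKM counts the fragments of a gene after division by its length and by the size of the library. A gene's difference is E1KO minus WT on the log2(FPKM+1) scale, which understates changes of genes near or under 1 FPKM.

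E1KO animals are labelled Ezh1-/- at 2 months. The label names neither a floxed Ezh2 nor a Cre. Beside them stand DKO animals, labelled Ezh1-/-Ezh2fl/flAlb-Cre, and E2KO animals, labelled Ezh2fl/flAlb-Cre, both also at 2 months. WT animals of 2 months are labelled Ezh2fl/fl, so they carry the floxed Ezh2 without Cre. All were on the mixed background 129SV::FVB/N::C57BL/6, and the tissue was whole liver. Alb-Cre acts in hepatocytes under the albumin promoter, so other liver cells of DKO and E2KO animals keep Ezh2. Sample titles name 3 replicates for each group of 2 months. The table holds 1 pooled value for them, so no value below carries a spread between animals and no p-value was computed for E1KO against WT. E1KO and WT columns from 8 months (2 replicates in the title) and from 3 months with CCl4, a toxin that hepatocytes activate, are given where a gene differed there too.

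Ezh1 and Ezh2 are alternative catalytic subunits of Polycomb repressive complex 2 (PRC2), which methylates lysine 27 of histone H3 and keeps developmental genes silent. Ezh2 is abundant in dividing cells, whereas Ezh1 is retained in cells that have stopped dividing, such as adult hepatocytes. Either enzyme can often stand in for the other.

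The RNA of Ezh1 followed the label. Ezh1 was at 0.07 FPKM in E1KO, 0.07 in DKO, 2.50 in E2KO and 2.38 in WT. Ezh2 was low in all 4 columns, at 0.80 FPKM in E1KO, 0.74 in DKO, 0.84 in E2KO and 1.11 in WT. Its RNA thus did not set DKO and E2KO apart from E1KO, and the deletion of Ezh2 in them is taken from the label. None of the other PRC2 subunits with a tested value differed by 1 or more, Eed being at 4.83 FPKM in E1KO and 6.34 in WT and Suz12 at 6.26 and 7.61. The tissue label was checked against its markers. The 14 hepatocyte genes summed to 37843 FPKM in E1KO and 33704 in WT. Skeletal muscle markers summed to 3.88 FPKM in E1KO and 3.18 in WT, with the myosin genes Myh1, Myh2, Myh4 and Myh7 at 0 in both. Column totals were 653737 FPKM in E1KO and 561358 in WT, within the range of 531761 to 674119 over the 12 columns. The median difference over all genes tested was -0.03.

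Most genes had similar values in E1KO and WT. A total of 269 genes (2.63% of those tested) differed by at least 1, which is a doubling of FPKM+1, with 132 higher (1.29%) and 137 lower (1.34%) in E1KO. Symbols of small RNAs (Mir, Snor, Scarna, Rnu and n-R5s), which fragments of this kind of library count poorly, made up 100 of them: 60.6% of the 165 small RNA symbols tested were past the fold, and 71 of the 100 were listed at 0 in E1KO or in WT. They are counted apart from here on. Of the other 10049 genes, 169 were past the fold (1.68%), 90 higher (0.896%) and 79 lower (0.786%) in E1KO, and the 5th and 95th percentiles of the difference were -0.48 and 0.56. Of them, 45.8% were above 0. Just inside the limit were Inmt (1000.8 FPKM in E1KO, 499.7 in WT) and Cyp7b1 (169.4 in E1KO, 342.9 in WT), and just outside it Pck1 (2176 in E1KO, 1093 in WT) and Stat3 (12.9 in E1KO, 26.7 in WT).

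**Figure D1:**
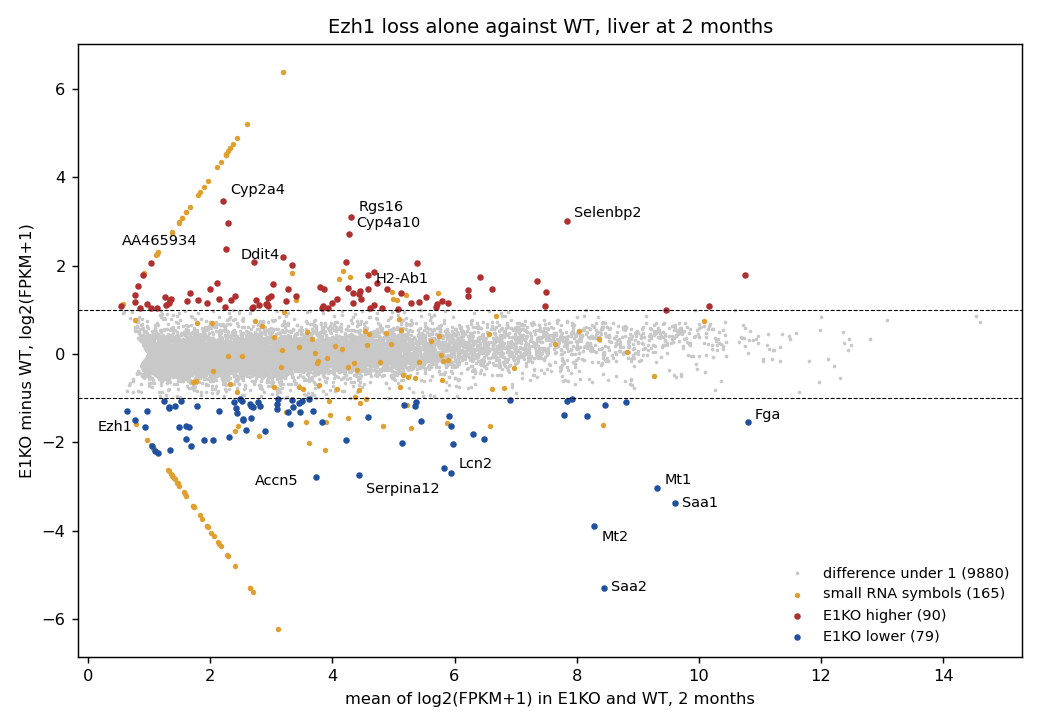
Each point is 1 gene of the 10214 tested; the x axis is the mean log2(FPKM+1) of E1KO and WT at 2 months and the y axis is E1KO minus WT on that scale, with dashed lines at a difference of 1 either way. Red and blue points are the 90 higher and 79 lower genes, orange points the 165 small RNA symbols, which spread far more widely than the others.

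The genes highest in E1KO relative to WT included P450 enzymes, a lipid carrier and regulators of cell signalling. Cyp2a4, a steroid hydroxylase that female mouse liver normally expresses, was at 14.4 FPKM in E1KO, 124.3 in DKO, 0.48 in E2KO and 0.39 in WT (difference 3.47). Its near-identical neighbour Cyp2a5, with which fragments can be shared, was at 408.8 FPKM in E1KO and 333.1 in WT. Cyp4a14, a fatty acid omega-hydroxylase and a target of the nuclear receptor PPARalpha, which fasting activates, was at 12.7 FPKM in E1KO, 33.1 in DKO, 0.96 in E2KO and 0.74 in WT. Its relative Cyp4a10 was at 48.6 FPKM in E1KO, 60.5 in DKO, 9.86 in E2KO and 6.59 in WT. In Cyp2a4, Cyp4a14 and Cyp4a10, both columns without Ezh1 were above both columns with it, and DKO was above E1KO.

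Rgs16, which speeds the shut-off of G protein signalling, was at 57.1 FPKM in E1KO, 75.6 in DKO, 10.4 in E2KO and 5.73 in WT (difference 3.11). Selenbp2, a selenium-binding protein gene that male liver normally expresses more, was among the abundant genes of this group, at 645.9 FPKM in E1KO, 305.3 in DKO, 50.6 in E2KO and 79.3 in WT. Ddit4, an inhibitor of the growth kinase complex mTORC1 that stress and glucocorticoids induce, was at 19.3 FPKM in E1KO, 20.1 in DKO, 3.76 in E2KO and 4.0 in WT. Again the 2 columns without Ezh1 stood together, apart from the 2 with it.

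Mfsd2a, a carrier of lysophospholipids that fasting induces in liver, was at 37.6 FPKM in E1KO, 83.3 in DKO, 6.80 in E2KO and 8.13 in WT. Sult5a1, a sulfotransferase gene, was at 84.2 FPKM in E1KO, 59.7 in DKO, 17.5 in E2KO and 19.3 in WT. The uncharacterised transcript AA465934 was at 9.99 FPKM in E1KO, 17.1 in DKO, 0.92 in E2KO and 1.11 in WT. These followed the same split by Ezh1 genotype. The remaining genes of the highest 12 were the beta-globin gene Hbb-b1 (12.6 FPKM in E1KO, 2.21 in WT), the pseudogene Marcksl1-ps4 (18.4 in E1KO, 3.26 in WT) and Rprl3, a ribonuclease P RNA-like gene (3.19 in E1KO, listed at 0 in WT).

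**Figure D2:**
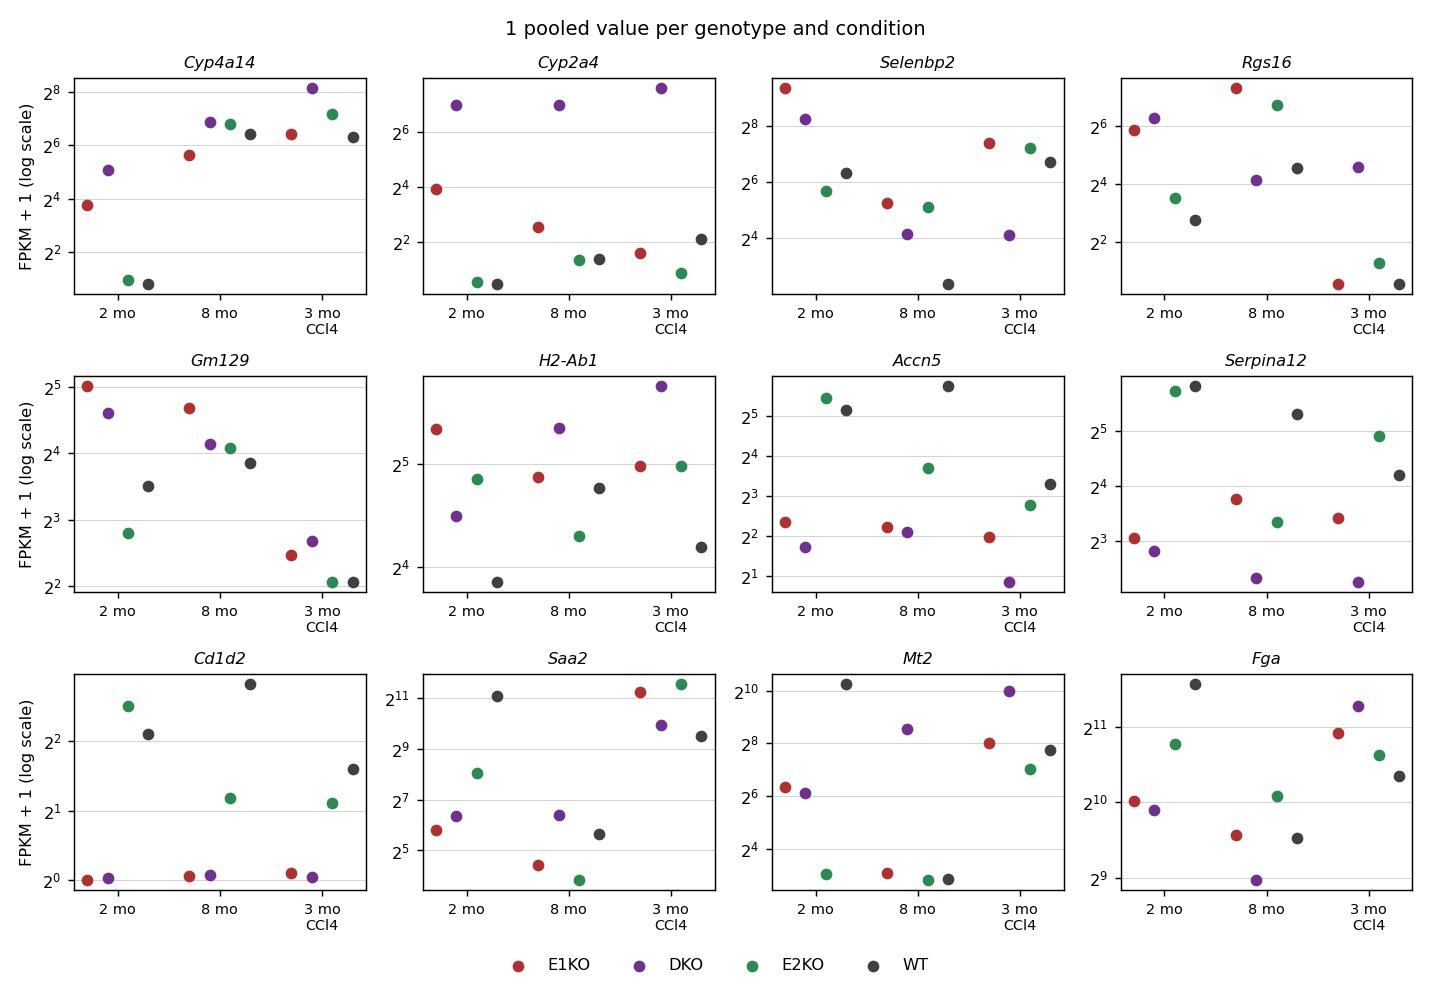
FPKM+1 (log scale, y axis) of 12 genes in all 12 columns, grouped by condition on the x axis, with E1KO, DKO, E2KO and WT from left to right and 1 pooled value per point. In Cyp4a14, Selenbp2, Rgs16, Accn5, Serpina12 and Cd1d2 at 2 months E1KO lies nearer to DKO and E2KO nearer to WT. In Cyp2a4 E2KO lies beside WT and E1KO between WT and DKO. In Saa2, Mt2 and Fga the WT point stands alone at the top.

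The 12 genes lowest in E1KO relative to WT were of 2 kinds by how the 4 columns sat. In the first, both columns without Ezh1 were low and both with it were high. Accn5, an acid-sensing ion channel family gene, was at 4.07 FPKM in E1KO, 2.32 in DKO, 43.1 in E2KO and 34.3 in WT (difference -2.80). Serpina12, which encodes the secreted serpin vaspin, was at 7.36 FPKM in E1KO, 6.07 in DKO, 51.8 in E2KO and 54.8 in WT (difference -2.74). Some of these genes were close to undetected without Ezh1. Cd1d2, a lipid antigen-presenting CD1 gene, was listed at 0 in E1KO and was at 0.02 FPKM in DKO, 4.65 in E2KO and 3.26 in WT. Gdpd3, a lysophospholipase gene, was at 0.20 FPKM in E1KO, 0.24 in DKO, 16.2 in E2KO and 4.42 in WT. Moxd1, a monooxygenase-like gene that male liver normally expresses more, was at 0.02 FPKM in E1KO, 0.02 in DKO, 10.6 in E2KO and 3.82 in WT. For Gdpd3 and Moxd1 the E2KO column was itself above WT by more than 1, so they moved in opposite directions in the 2 single knockouts. The histone gene Hist2h2ac was listed at 0 in E1KO and was at 0.17 FPKM in DKO, 5.24 in E2KO and 3.59 in WT.

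In the second kind the WT column alone was high. Saa2, an acute phase apolipoprotein, was at 54.3 FPKM in E1KO, 80.2 in DKO, 260.5 in E2KO and 2175 in WT (difference -5.30). Its near-identical copy Saa1 was at 239.9 FPKM in E1KO, 318.5 in DKO, 465.8 in E2KO and 2517 in WT, and fragments may have been split between the 2 genes. The iron-binding lipocalin Lcn2 was at 23.2 FPKM in E1KO, 30.3 in DKO, 7.28 in E2KO and 155.7 in WT. Every knockout column was far below WT in these genes, E2KO included. Steap4, a metalloreductase induced by inflammation, followed them at 22.1 FPKM in E1KO, 19.9 in DKO, 25.2 in E2KO and 137.1 in WT.

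The recurrence of the 169 genes in the other genotypes was then counted. Both of those comparisons use the same WT column as E1KO against WT, so a gene that is out of place in WT recurs in all of them. In DKO against WT, 118 of the 169 (69.8%) were past the fold the same way, where 2.7% of all genes other than small RNAs were past it (1.43% higher, 1.26% lower). In E2KO against WT, 27 (16.0%) were past the fold the same way, where 0.687% were past it (0.149% higher, 0.537% lower). The genes thus divided into 97 shared with DKO and not E2KO (54 higher, 43 lower), 21 shared with both (4 higher, 17 lower), 6 shared with E2KO and not DKO (2 higher, 4 lower), and 45 shared with neither (30 higher, 15 lower). No gene was past the fold the opposite way in DKO, and 4 were in E2KO (Moxd1, Gdpd3, Cyp2c40 and BC002163). The 17 lower genes shared with both held Saa1, Saa2, Saa3, Saa4, Serpina3n, Lcn2, Il1rn, Steap4, Mt1 and Mt2. Those found in E1KO alone included Ctsl, a lysosomal protease (136.6 FPKM in E1KO, 208.3 in DKO, 345.2 in E2KO and 359.1 in WT), and Pfkfb3, a regulator of glycolysis (11.53 in E1KO, 6.91 in DKO, 5.34 in E2KO and 4.05 in WT), whose DKO values lay between those of E1KO and WT.

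DKO against E2KO gives the effect of Ezh1 loss where hepatocytes also lack Ezh2, and shares no column with E1KO against WT. Of the 169 genes, 73 (43.2%) were past the fold the same way in it, where 2.81% of all genes other than small RNAs were past it. By direction these were 38 of the 90 higher genes (42.2%; background 1.6%) and 35 of the 79 lower genes (44.3%; background 1.2%). The sign was the same for 148 of the 169. With the small RNA symbols included, 174 of the 269 genes were past the fold the same way in DKO against WT (background 3.39%), 77 in E2KO against WT (1.33%) and 100 in DKO against E2KO (3.46%). In DKO against E2KO, 25 of the 269 genes (9 higher and 16 lower in E1KO) were past the fold the opposite way. Of the 169 genes other than small RNAs, 5 were, all lower in E1KO: Mt1, Mt2, Lcn2, Orm2 and the non-coding RNA Snhg9. Orm2, an acute phase glycoprotein, was at 27.3 FPKM in E1KO, 114.8 in DKO, 20.0 in E2KO and 58.8 in WT. In 4 of the 5 the E2KO column was the lowest of the 4, so the direction of the difference depended on which column Ezh1 loss was set against. In contrast, Cyp2a4 differed by 6.40, Cyp4a14 by 4.12, Rgs16 by 2.75 and Selenbp2 by 2.57 between DKO and E2KO, and Gdpd3 by -3.80, Accn5 by -3.73, Moxd1 by -3.51 and Serpina12 by -2.90.

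**Figure D3:**
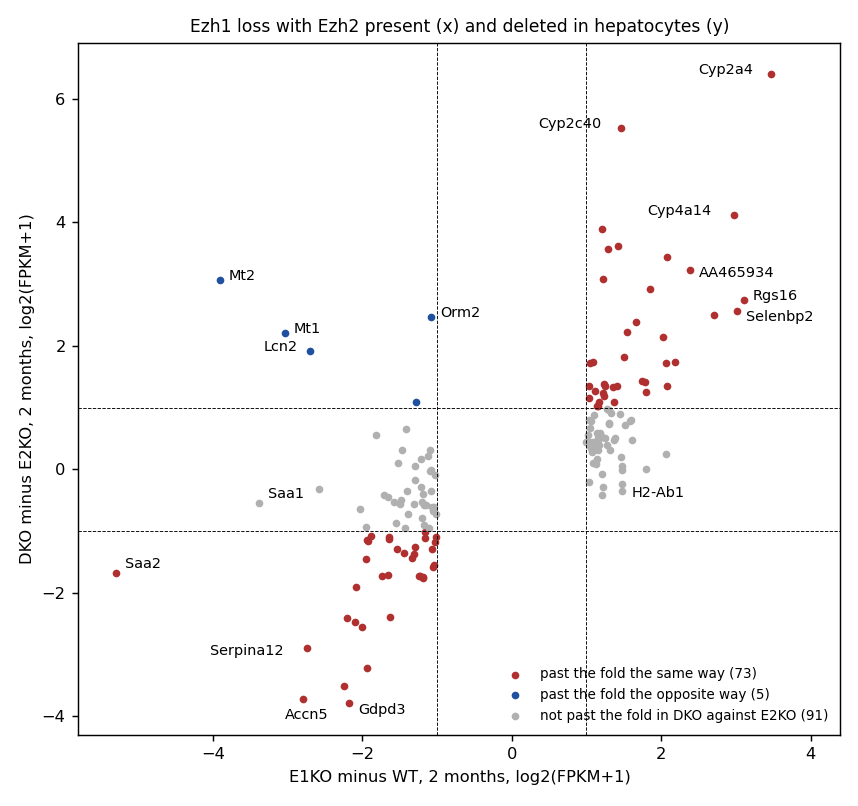
Each point is 1 of the 169 genes past the fold; the x axis is E1KO minus WT and the y axis is DKO minus E2KO at 2 months, both in log2(FPKM+1), with dashed lines at 1 and -1. Red points (73) are past the fold the same way in both, blue points (5, among them Mt1, Mt2, Lcn2 and Orm2) the opposite way, and Saa1 and Saa2 lie far to the left with smaller differences on the y axis.

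A single fit over the 4 columns of 2 months, with additive terms for Ezh1 loss and Ezh2 deletion, gave the only test that these columns allow. It has 1 residual degree of freedom, so it measures how far the 4 values depart from additivity and nothing about animals. With limma, 36 of 10553 genes passed an adjusted p of 0.05 for Ezh1 loss (0.341%; 18 higher and 18 lower, 0.171% each), of which 11 were small RNA symbols, and 1761 had an unadjusted p under 0.05. The 25 other genes, 12 higher and 13 lower, were all past the fold in E1KO against WT. The fit holds both of those columns, so this overlap is not separate evidence. Among those that rose with Ezh1 loss were Ddit4 by 2.08 (SE 0.11, limma adjusted p = 0.00845), Rgs16 by 2.93 (0.00845), Cyp4a10 by 2.61 (0.00845), AA465934 by 2.81 (0.0249), Cyp4a14 by 3.55 (0.0251) and Selenbp2 by 2.79 (0.0271). Glb1, the lysosomal beta-galactosidase, also rose (1.23, limma adjusted p = 0.0271). Among those that fell were Serpina12 (-2.82, SE 0.14, limma adjusted p = 0.00735), the magnesium transporter gene Slc41a2 (-1.73, 0.0095), Hist2h2ac (-2.31, 0.0148), the phospholipid transporter gene Abca3 (-1.40, 0.0223), Accn5 (-3.26, 0.0223) and Cd1d2 (-2.28, 0.0236). Ezh1 itself just missed the threshold (-1.68, limma adjusted p = 0.0505). Cyp2a4, in which DKO and E1KO differed widely, and genes in which WT alone was high did not pass: Cyp2a4 had an adjusted p of 0.0734, Saa2 of 0.182, Mt1 of 0.882 and Mt2 of 0.910 with limma. The number of genes that pass ranged from 0 to 151 with the settings of the fit. Of the genes named in this paragraph, only Ddit4 passed both without a mean trend and over all 12 columns.

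The acute phase genes, which liver secretes in inflammation, were lower in E1KO than in WT as a list. Of 27 tested, 9 were past the fold lower and 1 higher, where 0.786% of genes other than small RNAs were lower and 0.896% higher, with a median difference of -0.63 against -0.03 for all genes tested. The fibrinogen chain gene Fga was at 1038 FPKM in E1KO, 950.7 in DKO, 1747 in E2KO and 3043 in WT. The protease inhibitor gene Serpina3n was at 175.9 FPKM in E1KO, 125.8 in DKO, 160.3 in E2KO and 467.3 in WT. Stat3, the transcription factor through which interleukin-6 induces these genes, was just short of the fold, as given above. WT held the highest of the 4 values in 22 of the 27 genes, while it was highest in 29.1% of all genes other than small RNAs. The list's median was -0.94 in DKO against WT, -0.74 in E2KO against WT and -0.09 in DKO against E2KO. Summed over the list, FPKM was 20073 in E1KO, 16314 in DKO, 18631 in E2KO and 34522 in WT. A high level of acute phase RNA in the WT column and an effect of genotype cannot be told apart from 1 pooled value. The 1 member past the fold higher was Cebpb, a transcription factor of the acute phase and of fasting. It was at 115.7 FPKM in E1KO, 108.5 in DKO, 64.6 in E2KO and 46.3 in WT. Apart from Lcn2, which hepatocytes also make, the highest neutrophil markers were S100a8 (2.71 FPKM in E1KO, 3.09 in WT) and S100a9 (3.14 in E1KO, 3.17 in WT).

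Metallothioneins, small proteins that bind zinc and copper and respond to metals, glucocorticoids and inflammation, were also highest in WT. Mt1 was at 221.7 FPKM in E1KO, 281.3 in DKO, 60.4 in E2KO and 1825 in WT, and Mt2 was at 79.9 in E1KO, 68.5 in DKO, 7.29 in E2KO and 1212 in WT. In both genes E2KO, which keeps Ezh1, was the lowest column. The other 6 tested genes of zinc handling differed by less than 1, and all 8 of the list were below WT (median -0.50). Because the 2 genes ran together over the 4 columns, the 250 bases before their starts are shown (RefSeq, assembly GRCm38.p6, 5′ to 3′ on the gene's strand). Capitals mark matches on either strand to TGCNCNC, with N for any base. This pattern is looser than the core of the metal response element, so not every match is such a core. Mt1 lies at chr8:94178839-94179088 on the plus strand and has 1 match, and Mt2 lies at chr8:94172368-94172617 on the plus strand and has 5.
Mt1: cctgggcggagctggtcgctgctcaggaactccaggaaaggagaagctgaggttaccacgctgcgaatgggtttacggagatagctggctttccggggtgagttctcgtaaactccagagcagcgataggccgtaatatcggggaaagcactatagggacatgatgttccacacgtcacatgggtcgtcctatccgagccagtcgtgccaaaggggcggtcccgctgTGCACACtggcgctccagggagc
Mt2: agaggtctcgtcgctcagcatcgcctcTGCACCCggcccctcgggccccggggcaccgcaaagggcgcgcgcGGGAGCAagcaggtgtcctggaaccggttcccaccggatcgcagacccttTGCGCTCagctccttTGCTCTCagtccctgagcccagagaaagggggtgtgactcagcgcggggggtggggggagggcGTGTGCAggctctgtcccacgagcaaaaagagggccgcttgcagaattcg
Of 32851 promoter windows of this length, 44.4% held at least 1 match and 0.344% at least 5, so a single match is common. A match is not evidence of binding, and matches outside these 250 bases, such as past the listed start, were not counted.

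Several genes of the fasting and glucocorticoid response were higher in E1KO. Of 22 tested, 6 were past the fold higher and 1 lower (0.896% and 0.786% over genes other than small RNAs), with a median of 0.41. WT was the lowest of the 4 columns in 12, against 22.6% of genes other than small RNAs. Beside Cyp4a10, Cyp4a14 and Ddit4, described above, these were Tsc22d3, Igfbp1 and Per1. Tsc22d3, a direct glucocorticoid target, was at 161.4 FPKM in E1KO, 137.4 in DKO, 132.5 in E2KO and 57.4 in WT. Igfbp1, which binds insulin-like growth factors and rises in fasting, was at 45.3 FPKM in E1KO, 45.7 in DKO, 26.0 in E2KO and 14.2 in WT. For Tsc22d3 the E2KO column was nearly as high as the columns without Ezh1, with a difference of 0.05 between DKO and E2KO, whereas Igfbp1 in E2KO lay midway. The gluconeogenic enzyme gene Pck1 (2176 FPKM in E1KO, 1812 in DKO, 1486 in E2KO and 1093 in WT) and the tyrosine aminotransferase gene Tat (1384 in E1KO, 885.4 in DKO, 1135 in E2KO and 698.2 in WT) were just short of the fold. Asns, asparagine synthetase, was the member that was lower, at 0.58 FPKM in E1KO, 1.71 in DKO, 4.91 in E2KO and 3.94 in WT.

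Clock genes, which keep daily rhythms and many of which liver also expresses in relation to feeding, had 4 of 20 members past the fold higher and none lower, beside 0.896% and 0.786% over genes other than small RNAs (median 0.18, against -0.03 over all genes tested). Gm129, the older symbol of the clock repressor Ciart, was at 31.2 FPKM in E1KO, 23.4 in DKO, 5.94 in E2KO and 10.4 in WT. Usp2, a rhythmic deubiquitinase gene, was at 24.8 FPKM in E1KO, 22.6 in DKO, 8.08 in E2KO and 9.94 in WT. Both rose with Ezh1 loss in the fit of 4 columns, Gm129 by 1.66 (limma adjusted p = 0.0302) and Usp2 by 1.31 (limma adjusted p = 0.0461). That fit holds the E1KO and WT columns, so it is not separate evidence. Neither gene passed in the fit without a mean trend or in the fit over all 12 columns. Dbp, a rhythmic transcription factor, was at 74.2 FPKM in E1KO, 76.2 in DKO, 60.0 in E2KO and 35.1 in WT, and Per1 was at 10.2 in E1KO, 11.1 in DKO, 7.07 in E2KO and 4.09 in WT. In Dbp and Per1 the E2KO column stood between those without Ezh1 and WT. Arntl, the activator that peaks in antiphase to them, was low throughout, at 0.25 FPKM in E1KO, 0.30 in DKO, 0.77 in E2KO and 1.02 in WT. The labels name no time of day for taking the livers, and its part in these differences was not tested. The E-box CACGTG, through which the clock activators bind, is marked in capitals in the 250 bases before the starts of Ciart (chr3:95882229-95882478, minus strand, 3 matches) and Per1 (chr11:69098699-69098948, plus strand, 1 match, the first of 2 starts in the table), from the same RefSeq assembly.
Ciart: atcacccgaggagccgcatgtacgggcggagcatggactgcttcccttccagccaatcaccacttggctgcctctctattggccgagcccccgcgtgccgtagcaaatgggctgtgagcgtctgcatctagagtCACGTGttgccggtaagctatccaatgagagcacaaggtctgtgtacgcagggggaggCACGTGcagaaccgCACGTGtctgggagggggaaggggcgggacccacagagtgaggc
Per1: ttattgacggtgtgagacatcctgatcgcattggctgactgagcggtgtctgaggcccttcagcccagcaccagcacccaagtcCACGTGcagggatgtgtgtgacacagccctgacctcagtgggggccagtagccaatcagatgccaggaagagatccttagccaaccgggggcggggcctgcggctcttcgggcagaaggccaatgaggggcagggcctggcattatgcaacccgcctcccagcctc
At least 1 E-box was present in 6.02% of the 32851 windows and at least 3 in 0.0609%.

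MHC genes, which present antigen, were mostly lowest in WT. Of 17 tested, 6 were past the fold higher in E1KO (background 0.896%) and 1, Cd1d2, lower (background 0.786%; median 0.57), and WT was the lowest of the 4 columns in 13, against 22.6% of all genes other than small RNAs. The class II genes H2-Ab1, H2-Aa and H2-Eb1 and the invariant chain gene Cd74 led them. H2-Ab1 was at 39.2 FPKM in E1KO, 21.5 in DKO, 27.9 in E2KO and 13.5 in WT. H2-Aa was at 48.4 FPKM in E1KO, 29.5 in DKO, 29.8 in E2KO and 16.8 in WT. H2-Eb1 was at 23.2 FPKM in E1KO, 13.9 in DKO, 16.6 in E2KO and 7.73 in WT, and Cd74 at 82.9 in E1KO, 53.3 in DKO, 56.2 in E2KO and 35.4 in WT. E1KO was highest in each, but E2KO, which keeps Ezh1, was also above WT, and DKO minus E2KO ranged only from -0.36 to -0.01. The class II promoters are shown because these genes moved together, with capitals for the Y box core GATTGG on either strand, 250 bases before the starts of H2-Aa (chr17:34287824-34288073, minus strand, 1 match) and H2-Eb1 (chr17:34305617-34305866, plus strand, 2 matches), again from RefSeq GRCm38.p6.
H2-Aa: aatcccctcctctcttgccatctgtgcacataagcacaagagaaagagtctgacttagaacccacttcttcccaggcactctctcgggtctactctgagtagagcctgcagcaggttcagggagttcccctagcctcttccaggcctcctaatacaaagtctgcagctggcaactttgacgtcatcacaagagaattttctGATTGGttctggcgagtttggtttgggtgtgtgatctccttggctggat
H2-Eb1: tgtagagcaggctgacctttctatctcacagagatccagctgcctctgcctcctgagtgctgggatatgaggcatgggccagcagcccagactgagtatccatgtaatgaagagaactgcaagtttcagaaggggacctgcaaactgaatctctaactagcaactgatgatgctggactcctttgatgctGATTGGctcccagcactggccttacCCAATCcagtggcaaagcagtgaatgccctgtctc
Of all windows, 14.6% held at least 1 match and 2.4% at least 2. The class I-like gene H2-Q1 was highest in DKO, at 2.86 FPKM in E1KO, 14.2 in DKO, 0.79 in E2KO and 0.66 in WT. H2 genes resemble each other closely and their split of fragments is uncertain, more so in a mixed strain background.

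Class II genes are expressed by macrophages, dendritic cells and B cells rather than by hepatocytes, so lists of macrophage and lymphocyte markers are given beside them. In whole liver, more cells of a type and more RNA per cell cannot be told apart. The 29 macrophage and Kupffer cell markers summed to 425.2 FPKM in E1KO, 338.9 in DKO, 240.0 in E2KO and 300.7 in WT. Of the 26 tested, 22 were above WT in E1KO (median 0.40), but only the scavenger receptor gene Marco was past the fold, at 4.09 FPKM in E1KO, 1.24 in DKO, 0.61 in E2KO and 0.97 in WT. The Kupffer cell lectin Clec4f was at 40.02 FPKM in E1KO, 34.9 in DKO, 21.9 in E2KO and 28.8 in WT, and C1qa was at 64.6 in E1KO, 47.1 in DKO, 30.4 in E2KO and 35.6 in WT. The macrophage list had a median of -0.29 in E2KO against WT, where the class II genes were above WT. The 17 lymphocyte markers summed to 7.66 FPKM in E1KO, 8.41 in DKO, 7.08 in E2KO and 4.99 in WT. Only 1 of them was tested, at 0.61 in E1KO against WT and 0.52 in E2KO against WT. The part of any of these cells in the class II difference was not tested. Matrix genes (25 tested, median 0.40, 1 past the fold) and stellate cell markers (14 tested, median 0.38, none past the fold) were shifted a little upward, Eln being at 1.92 FPKM in E1KO, 2.35 in DKO, 0.51 in E2KO and 0.42 in WT and Col3a1 at 11.8 in E1KO, 17.3 in DKO, 5.13 in E2KO and 5.72 in WT. Interferon-stimulated genes had a median of 0.38 over 31 tested, with none past the fold, and sinusoidal endothelial markers 0.22 over 18 with none.

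**Figure D4:**
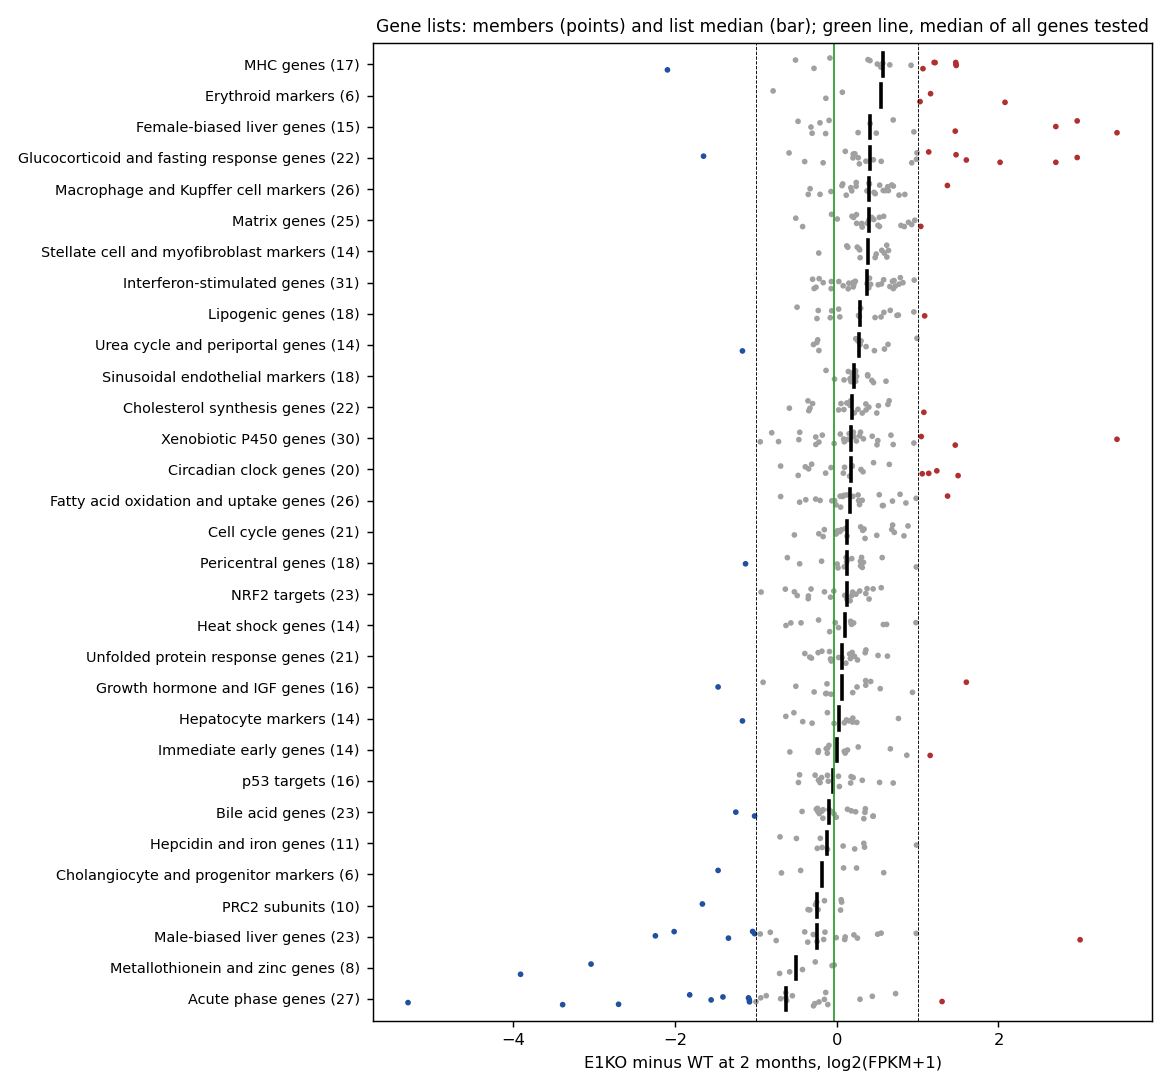
Each row is a gene list with at least 6 tested members (their number in brackets), ordered by median; the x axis is E1KO minus WT at 2 months in log2(FPKM+1), points are members, black bars list medians and the green line the median of all genes tested. Acute phase genes (median -0.63) and metallothionein and zinc genes (-0.50) lie at 1 end, and MHC genes (0.57) and erythroid markers (0.55) at the other.

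Sex-biased liver genes, to which Cyp2a4, Cyp4a14, Selenbp2 and Moxd1 belong, depend on the pattern of growth hormone secretion. All 4 columns of 2 months had male-typical sex-linked RNA, with Xist at 0.01 FPKM in E1KO and 0.02 in WT and Ddx3y at 10.9 in E1KO and 14.6 in WT. Of 23 male-biased genes tested, 5 were past the fold lower in E1KO and 1 higher, beside 0.786% and 0.896% over genes other than small RNAs (median -0.24). Hsd3b2, a steroid dehydrogenase gene, was at 16.5 FPKM in E1KO, 11.9 in DKO, 74.6 in E2KO and 69.5 in WT, and fell with Ezh1 loss in the fit of 4 columns (-2.28, limma adjusted p = 0.0300). Its close relative Hsd3b3 differed the other way, at 156.2 FPKM in E1KO, 158.6 in DKO, 58.4 in E2KO and 45.8 in WT, and fragments may be shared between them. The complement regulator Susd4 also fell (2.40 FPKM in E1KO, 3.49 in DKO, 11.1 in E2KO and 7.59 in WT, limma adjusted p = 0.0223). Since the fit holds the E1KO and WT columns, these calls are not separate evidence. Neither Hsd3b2 nor Susd4 passed in the fit without a mean trend or in the fit over all 12 columns. Elovl3 and Mup21, classical male-biased genes, were below WT by less than the fold in E1KO, at 58.7 and 919.6 FPKM in E1KO, 21.4 and 112.3 in DKO, 101.0 and 1744 in E2KO, and 99.3 and 1624 in WT. Of 15 female-biased genes tested, out of 34 in the table, 4 were past the fold higher (background 0.896%) and none lower (median 0.41). One was Cyp2c40, at 14.99 FPKM in E1KO, 73.8 in DKO, 0.61 in E2KO and 4.79 in WT. In Cyp2a4 and Cyp2c40 DKO was far above E1KO. Over the female-biased list the median was 0.41 in E1KO against WT and 1.32 in DKO against WT, and over the male-biased list -0.24 and -0.82.

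Metabolic lists had small shifts and few members past the fold. Lipogenic genes (18 tested, median 0.29) had 1 past the fold, Thrsp, a regulator of fatty acid synthesis, at 1676 FPKM in E1KO, 988.9 in DKO, 728.6 in E2KO and 787.9 in WT. Fasn, fatty acid synthase, was at 42.6 FPKM in E1KO, 46.9 in DKO, 32.2 in E2KO and 21.5 in WT, just under the fold. Cholesterol synthesis genes (22 tested, median 0.20) had 1, Mvd (10.2 FPKM in E1KO, 7.29 in DKO, 5.81 in E2KO and 4.30 in WT). Genes of fatty acid oxidation and uptake (26 tested, median 0.16) had 1, the phospholipid transfer protein gene Pltp, at 31.5 FPKM in E1KO, 30.6 in DKO, 13.8 in E2KO and 11.6 in WT. Cps1, the first enzyme of the urea cycle and the only one of 14 urea cycle and periportal genes past the fold, was at 233.7 FPKM in E1KO, 233.1 in DKO, 506.6 in E2KO and 524.8 in WT. Of 23 bile acid genes, 2 were lower past the fold: the bile acid transporter gene Slc10a2, at 4.52 FPKM in E1KO, 1.94 in DKO, 8.80 in E2KO and 12.1 in WT, and the hydroxylase Cyp7b1. Pericentral genes had 1 of 18, the transcription factor Tbx3 (3.28 FPKM in E1KO, 4.33 in DKO, 3.62 in E2KO and 8.34 in WT), and the transcription factor Onecut1 was at 2.48 in E1KO, 4.33 in DKO, 3.30 in E2KO and 8.61 in WT. No member was past the fold among the tested genes for heat shock (14), the unfolded protein response (21), NRF2 targets (23), p53 targets (16), the cell cycle (21), CDK inhibitors (4) or hepcidin and iron (11).

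None of the 39 Hox genes, the best known PRC2 targets, reached 1 FPKM in E1KO or in WT. Cdkn2a, a cell cycle inhibitor that PRC2 silences, was at 0.05 FPKM in E1KO, 1.40 in DKO, 0.06 in E2KO and listed at 0 in WT, so only the DKO column had more than a trace. Erythroid markers were mixed: the globin genes Hbb-b1, Hba-a1 and Hba-a2 were higher past the fold in E1KO (Hba-a2 by 1.03, or 0.98 with upper quartile scaling), while Hbb-b2, close in sequence to Hbb-b1, was at 2.22 FPKM in E1KO, 2.50 in DKO, 5.17 in E2KO and 4.55 in WT. Fragments cannot be assigned surely between the copies.

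Recurrence at other ages was lower than between backgrounds at 2 months. At 8 months, 31 of the 169 genes (18.3%; 17 higher, 14 lower) were past the fold the same way in E1KO against WT, where 1.17% of genes other than small RNAs were past it (0.537% higher, 0.637% lower), and 8 were the opposite way. That E1KO column had Ezh1 at 0.88 FPKM, against 2.04 in WT, and skeletal muscle markers summed to 535.0 FPKM in it and 4.75 in WT, so values from it are given with that limit. With CCl4, 22 of the 169 (9 higher, 13 lower) were past the fold the same way, where 1.29% were past it (0.726% higher, 0.567% lower), and 8 the opposite way. Rgs16 was at 157.1 FPKM in E1KO, 16.4 in DKO, 104.4 in E2KO and 22.3 in WT at 8 months. With CCl4 it was at 0.43 in E1KO, 22.85 in DKO, 1.42 in E2KO and 0.44 in WT. Its split by Ezh1 genotype at 2 months was thus absent in both. Cyp4a14 was lower in E1KO at 8 months, at 48.7 FPKM against 85.2 in WT.

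Past the fold the same way in all 3 conditions were 9 genes, which were all past it in DKO against E2KO too: AA465934 was higher, and Accn5, Alad, Asns, Cd1d2, Gdpd3, Gm10653, Gm11968 and Gm8580 were lower. AA465934 was at 15.4 FPKM in E1KO and 2.32 in WT at 8 months, and at 11.3 in E1KO and 1.00 in WT with CCl4. Accn5 was at 3.62 FPKM in E1KO and 52.7 in WT at 8 months, and at 2.93 in E1KO and 8.77 in WT with CCl4. The level of Accn5 in WT thus varied with condition while that in E1KO stayed low. Alad, the second enzyme of heme synthesis and the most abundant of the 9, was at 157.3 FPKM in E1KO, 142.7 in DKO, 430.8 in E2KO and 328.9 in WT at 2 months. It was at 152.8 FPKM in E1KO and 565.8 in WT at 8 months, and at 109.9 in E1KO and 331.4 in WT with CCl4. The predicted gene Gm8580 was at 1.12 FPKM in E1KO, 0.62 in DKO, 14.1 in E2KO and 7.14 in WT at 2 months, and with CCl4 at 0.95 in E1KO and 34.3 in WT. Gdpd3 was at 0.29 FPKM in E1KO and 10.6 in WT at 8 months, and at 0.19 in E1KO and 3.94 in WT with CCl4. In Accn5, Gm8580 and Gdpd3 every E1KO column was thus low, so the size of the difference was largely set by the level in WT. The E2KO column, which keeps Ezh1, was also below WT at 8 months in several of the 9. There E2KO had Accn5 at 11.9 FPKM, Alad at 213.8, Gm8580 at 10.3 (28.2 in WT), Cd1d2 at 1.27 (6.01 in WT) and Gm10653 at 0.77 (4.51 in WT). Gdpd3 was near WT there (10.2 in E2KO), and Asns above it (5.73 in E2KO, 3.77 in DKO and 2.12 in WT). With CCl4, E2KO had Gdpd3 at 0.13 and Alad at 306.4.

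AA465934 and Gm11968 lie on chromosome 11, which also carries Ezh1, 159 and 575 tested genes away from it in the order of the RefSeq table. On that chromosome 15 of 839 tested genes, Ezh1 included, were past the fold (1.79%), close to the 1.68% over all chromosomes. That share covers the whole chromosome and does not single out the region near Ezh1. The nearest of the others to Ezh1 was Arl4d, 17 tested genes away, at 1.38 above WT in E1KO and 1.17 in E2KO. Next was Plcd3, 38 tested genes away, at 1.33 above WT in E1KO and 0.05 in E2KO. Gm15698, 107 tested genes away, was at 1.13 FPKM in E1KO and 2.35 in DKO, and listed at 0 in E2KO and WT. Whether closeness to Ezh1 plays a part was not tested. The other 7 of the 9 genes lie on other chromosomes.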

How the data were processed

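RNA-seq of liver is described here through 1 table of FPKM values that the authors deposited, with 22520 genes, 12 columns (1 per group) and 2 decimals. The submitters' processing notes name CASAVA, TopHat and Cufflinks, and BWA, SICER and HOMER for the series, on assembly mm9, without versions. How the replicates named in the titles were pooled is unstated in the labels. Read depth is unknown, which leaves no basis for counting intervals. The 9 ChIP-seq and input samples were not analysed here.

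Values were taken as log2(FPKM+1) on the deposited scale, for genes of at least 1 FPKM in E1KO or WT at 2 months, and a gene was past the fold at a difference of at least 1. Ezh1 loss was fitted over the 4 columns of 2 months with an additive Ezh2 term (genes of 1 FPKM or more in at least 1 of them) in R 4.3.3 with limma 3.58.1 (moderated by eBayes with a mean trend, Benjamini-Hochberg over all genes tested, two-sided), after the code was tested on simulated data. Counts and figures were made with Python 3.11.15, pandas 2.3.3 and matplotlib 3.10.9. Named were Ezh1 and Ezh2, the 12 highest and 12 lowest genes without small RNAs, the listed genes past the fold, the genes with the largest differences in both E1KO against WT and DKO against E2KO, and those with the smallest limma p. Since small RNAs filled the last 2 parts, versions without them and the genes past the fold in all 3 conditions were added after the values were seen, as were other genes given with values under the fold for comparison. The members and the 39 gene lists were chosen with earlier results of these data known. Promoter sequences and chromosomes are from RefSeq tables of GRCm38.p6, another assembly than the table's, in which 9979 of 10049 genes other than small RNAs were matched by symbol. Alternatives were another pseudocount, filter, scaling and set of columns.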

Additional observations from a re-analysis of the deposited data

Results flagged for a closer look

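The results below are named genes whose E1KO difference at 2 months was past the fold one way and whose difference under a comparable contrast was past it the opposite way. Each rests on 1 pooled value per group, and the difference between the contrasts was not tested. Values from 8 months carry a further limit. The E1KO column there had Ezh1 at 0.88 FPKM, against 2.04 in WT, and skeletal muscle markers summing to 535.0 FPKM, against 4.75 in WT.

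Between DKO and E2KO at 2 months, where Ezh1 loss is set against a column other than WT, 4 genes that were lower in E1KO than in WT were higher in DKO than in E2KO: Mt2 by 3.07, Orm2 by 2.46, Mt1 by 2.2 and Lcn2 by 1.92, on the log2(FPKM+1) scale as throughout. E2KO was the lowest of the 4 columns in each. The non-coding RNA Snhg9, which the naming rule does not cover, was the fifth such gene, at -1.29 in E1KO against WT and 1.09 in DKO against E2KO.

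With CCl4, 5 of the 9 acute phase genes that were lower in E1KO at 2 months were past the fold higher: E1KO was above WT in Orm2 by 2.59, Lcn2 by 2.32, Saa2 by 1.74, Saa3 by 1.4 and Saa1 by 1.12. The other 4 were not past the fold, Fga differing by 0.57, Il1rn by 0.31, Saa4 by -0.22 and Serpina3n by -0.25. Saa2 was at 2425 FPKM in E1KO and 726.0 in WT with CCl4, and at 20.8 in E1KO and 49.3 in WT at 8 months.

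Among the named metabolic genes, higher in E1KO at 2 months and lower elsewhere were Thrsp (-1.36 at 8 months and -1.28 with CCl4), Pltp (-2.17 at 8 months) and Cyp4a10 (-1.05 with CCl4). Outside the naming rule, and chosen after its values were seen, the methyltransferase gene Inmt differed by 1.00 at 2 months and by -2.04 with CCl4. The globin gene Hba-a1 was lower at 8 months (-3.5), at 0.25 FPKM in E1KO and 13.1 in WT. Among small RNA symbols, Mir2861 differed by 1.19, Mir697 by -1.01 and Snord52 by -8.08 with CCl4.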

How the results depend on the processing

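No paired analysis was possible because each group is 1 column, which pools the replicates, so no replicate could be left out either. The count of 269 genes past the fold became 410 with a pseudocount of 0.1 and 169 without small RNA symbols. It stayed within 1.5 times with the other settings (220 to 282). Scaling to the total without the 10 most abundant genes moved the median of all genes from -0.031 to -0.161 and gave 109 higher and 173 lower in place of 132 and 137. With a pseudocount of 0.1, 264 genes were shared with DKO against WT (174 as reported, small RNAs included) and 172 with DKO against E2KO (100). Without small RNA symbols 27 were shared with E2KO against WT (77). Leaving out genes past the fold in E2KO against WT, chosen after seeing the data, left 97 shared with DKO against E2KO. The limma count of 36 was least stable: 151 with a pseudocount of 0.1, 121 with a minimum of 5 FPKM, 87 with upper quartile scaling, 16 without a trend, 13 over all 12 columns, 2 over the columns of 2 months and CCl4, and 0 with no filter, where 2122 genes had an unadjusted p under 0.05. With limma over all 12 columns and over 2 months with CCl4 Ezh1 itself passed. The cause of these shifts was not tested. Upper quartile scaling took Hba-a2 and Cyp2c55, named as past the fold, to 0.98 and 1.00, at or under the limit. Without read counts, the precision of low values cannot be given.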
